A study of Mus musculus with 2 samples.

Results

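The genes of MHC class I antigen presentation are described here in Dgcr8 knockout mouse embryonic stem (ES) cells. The 10 members (B2m, H2-K1, H2-D1, Tap1, Tap2, Tapbp, Nlrc5, Erap1, Psmb8 and Psmb9) were taken by symbol, through the Ensembl identifiers of GENCODE mouse release M21, from the 43629 gene rows of the count tables, and each had a row in both. The series holds 1 group of 2 polyadenylated RNA libraries, replicates A and B, from cells of 129/Ola background at passage 7 in which Dgcr8, the RNA-binding partner of Drosha in microRNA processing, was edited with paired CRISPR/Cas9. Whether the code KO2 in the sample titles names 1 clone is not stated, nor what the code d5 there means. Whether A and B were separate cultures is not stated either, and the spread measured between A and B could be technical. No wild-type library was analysed here, and the values are levels in the knockout cells, not changes caused by the knockout. Dgcr8 itself held 1253 counts in replicate A and 1942 in replicate B, which does not check the genotype, since a count per gene does not show which exons were read.

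MHC class I molecules carry peptides from proteins of the cytosol and nucleus to the cell surface, where CD8 T cells read them and where natural killer cells sense their absence. Proteasomes, in part those with the interferon-inducible catalytic subunits, cut proteins into peptides, the TAP transporter moves the peptides into the endoplasmic reticulum, tapasin holds the empty class I molecule at TAP, and aminopeptidases trim the peptides to length. ES cells are known for little class I on their surface and for a weak interferon response.

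The count tables sum to 27872396 in replicate A and 30327146 in replicate B. Levels are given in CPM (counts per 1000000 of the library's total) and, for comparing genes with each other, in RPKM, which is CPM per kilobase of the merged exons of a gene. Each ± follows a mean and is its SD (n = 2), and intervals are exact 95% limits for counting error only. The 6 ES cell markers lay at 313 CPM or more, with Pou5f1 at 1805 and 1542 CPM (pairs of values give A first), Zfp42 at 668 and 648, and Dppa5a, an RNA-binding protein gene, at 4252 and 1767. Of 12 fibroblast markers 7 reached 1 CPM in both libraries, and their levels summed to 1107 and 1061 CPM, most of it Fn1 (882 and 848), which ES cells also make, then Vim (175 and 180) and Thy1 (31.4 and 21.9). Of the collagens, Col1a2 had 2 and 7 counts and Col3a1 had 1 and 5, whereas Col1a1 had 81 and 37. Lum and Twist2 had 0 counts, Pdgfrb had 297 and 109, and Pdgfra had 46 and 82. These genes and Col1a1 were named after their values were seen. The 12 leukocyte markers, of which 3 reached 1 CPM in both, summed to 29.6 and 33.2 CPM. Ptprc, which every leukocyte expresses, had 1 and 5 counts and Lyz2 had 0 and 1, whereas Cd68 had 412 and 720, Cd3e had 223 and 167, and Cd79a, of B cells, had 110 and 49. Fibroblasts and leukocytes express class I, and their part in the levels of the members was not tested. In bulk RNA, fewer cells that express a gene and less RNA per cell cannot be told apart.

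Of the members, 7 lie on chromosome 17 (GRCm38) in the major histocompatibility complex. Psmb9 (34181987 to 34187764, minus strand), Tap1 (34187553 to 34197225, plus), Psmb8 (34197721 to 34201454, plus) and Tap2 (34203527 to 34216321, plus) follow one another within 34335 bases. Tapbp (33915899 to 33929292, plus) and H2-K1 (33996017 to 34000347, minus) lie on the lower-coordinate side of that block, and H2-D1 (35262730 to 35267499, plus) lies 1046408 bases beyond its far end. The other 3 are B2m on chromosome 2 (122147686 to 122153083, plus), Nlrc5 on chromosome 8 (94434356 to 94527272, plus) and Erap1 on chromosome 13 (74639568 to 74693201, plus). All 10 are annotated as protein-coding, and the counts cover their exons as a whole.

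The promoter windows of the members hold some motifs in common. RefSeq promoters of GRCm38.p6, from 250 bases before to 50 after the start site, matched 8 members, and Tap2 and Nlrc5 were not matched. The RefSeq start used lay 3579 bases from the GENCODE start of the gene for Tapbp. That distance was 474 bases for Psmb8, 434 for Psmb9, 364 for H2-D1 and 285 for Erap1. Of 2 windows of H2-K1, the nearer to the GENCODE start was taken. Those of H2-K1, H2-D1, B2m, Tap1 and Erap1 are shown, since the genes of both heavy chains, the light chain and a transporter chain were lower in B and Erap1 was not called different, a choice made with the counts known. The windows of Psmb8, Psmb9 and Tapbp, which were lower in B as well, are described without their letters. Capitals mark matches to 5 motifs on either strand, chosen with the sequences known: GAAANNGAA and GAANNGAAA (forms of the site of interferon regulatory factors), GGGATTCCC (the core of an NF-kappaB site), TGACG (the core of the CREB and ATF site) and CCAAT (the site of NF-Y).
H2-K1, chr17:34000298-34000597, minus strand: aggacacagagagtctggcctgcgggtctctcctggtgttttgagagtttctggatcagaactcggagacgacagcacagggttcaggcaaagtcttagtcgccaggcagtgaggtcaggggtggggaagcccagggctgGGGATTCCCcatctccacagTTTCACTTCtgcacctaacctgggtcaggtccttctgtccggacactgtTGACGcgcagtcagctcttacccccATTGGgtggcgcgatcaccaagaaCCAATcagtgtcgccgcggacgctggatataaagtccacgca
H2-D1, chr17:35262844-35263143, plus strand: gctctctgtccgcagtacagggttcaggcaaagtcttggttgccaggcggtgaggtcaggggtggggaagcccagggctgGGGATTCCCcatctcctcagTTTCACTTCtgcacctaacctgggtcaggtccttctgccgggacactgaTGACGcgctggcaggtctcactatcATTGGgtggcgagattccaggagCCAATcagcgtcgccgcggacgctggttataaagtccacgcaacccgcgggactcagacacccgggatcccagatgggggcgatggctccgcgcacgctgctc
B2m, chr2:122147437-122147736, plus strand: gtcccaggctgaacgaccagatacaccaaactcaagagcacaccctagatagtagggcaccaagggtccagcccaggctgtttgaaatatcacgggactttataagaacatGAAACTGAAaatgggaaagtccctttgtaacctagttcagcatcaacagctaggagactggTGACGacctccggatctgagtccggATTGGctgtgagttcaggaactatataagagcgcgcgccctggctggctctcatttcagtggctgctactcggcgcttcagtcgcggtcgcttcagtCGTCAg
Tap1, chr17:34187306-34187605, plus strand: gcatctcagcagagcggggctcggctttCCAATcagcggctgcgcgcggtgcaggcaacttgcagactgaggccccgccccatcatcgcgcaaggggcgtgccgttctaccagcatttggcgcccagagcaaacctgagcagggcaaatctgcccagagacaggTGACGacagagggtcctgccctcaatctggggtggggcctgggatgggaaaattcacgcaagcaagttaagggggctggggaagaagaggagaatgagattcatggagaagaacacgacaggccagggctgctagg
Erap1, chr13:74639603-74639902, plus strand: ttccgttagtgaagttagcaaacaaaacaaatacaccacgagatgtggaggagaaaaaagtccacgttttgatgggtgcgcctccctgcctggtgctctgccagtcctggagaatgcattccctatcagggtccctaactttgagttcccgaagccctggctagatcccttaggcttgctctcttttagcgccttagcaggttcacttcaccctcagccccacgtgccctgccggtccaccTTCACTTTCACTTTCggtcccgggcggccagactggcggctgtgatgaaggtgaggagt

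H2-K1 and H2-D1, which encode the classical class I heavy chains of this reference, carried the same series of matches: GGGATTCCC, then TTTCACTTC (GAANNGAAA on the other strand), TGACG, and CCAAT on both strands. Their windows were identical at 176 of 240 bases (73.3%) when shifted by 60 bases against each other without gaps. GGGATTCCC was found in 116 of all 32851 promoter windows (0.353%) and in these 2 of the 8 member windows. B2m and Erap1 held GAAANNGAA, which 8.56% of all windows hold, and Erap1 held it at 2 overlapping places. GAANNGAAA stood in 7.52% of all windows and, among the members, in those of H2-K1 and H2-D1. TGACG was in 5 of the 8 member windows against 20.8% of all windows, and CCAAT in 6 of 8 against 37.4%. Psmb9 and Tap1 start 226 bases apart in opposite directions, so their windows share 275 bases. Their 1 TGACG and 1 CCAAT match are the same sites, counted for both genes. Since the motifs were chosen with these sequences known, the shares do not test enrichment. The window of Tapbp held CCAAT alone and that of Psmb8 none of the 5 motifs. Whether the motifs bear on the levels was not tested. A match says only that these letters stand in the window. The sequences are of the C57BL/6J reference, and whether alleles of the 129/Ola cells differ there was not tested.

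The class I molecule itself was the best expressed group, together with tapasin. H2-K1 (ENSMUSG00000061232) held 1501 counts in A and 492 in B, or 53.9 CPM (51.2 to 56.7) against 16.2 (14.8 to 17.7). Replicate A was the high library and the intervals lay far apart. H2-D1 (ENSMUSG00000073411) held 957 and 478 counts, 34.3 CPM (32.2 to 36.6) against 15.8 (14.4 to 17.2), again higher in A. B2m (ENSMUSG00000060802), the light chain without which class I heavy chains do not reach the surface stably, held 355 and 201 counts, 12.7 CPM (11.5 to 14.1) and 6.63 CPM (5.74 to 7.61). The 3 genes were thus each lower in B, and heavy chains and light chain did not overlap between the libraries. Gaps beyond counting error were common here: by the counting test described below, 76.8% of the tested genes differed between A and B.

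Per length, these genes lay close together. H2-K1 reached 11.9 ± 9.06 RPKM, B2m 11.3 ± 5.02 and H2-D1 9.71 ± 5.09, differences smaller than the spread between the libraries. The RPKM of H2-K1 was 1.38 times that of H2-D1 in A and 0.904 times in B. With the length of the APPRIS principal transcript, the annotated main coding isoform, in place of merged exons, H2-K1 was the higher in both libraries, 2.04 times in A and 1.34 times in B. B2m stood at 0.468 times the summed RPKM of both heavy chains in A and 0.663 times in B, or 0.299 and 0.440 times with principal transcripts. The mean level of each of the 3 exceeded that of 72.3% to 76.1% of the protein-coding genes with a count.

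**Figure D1:**
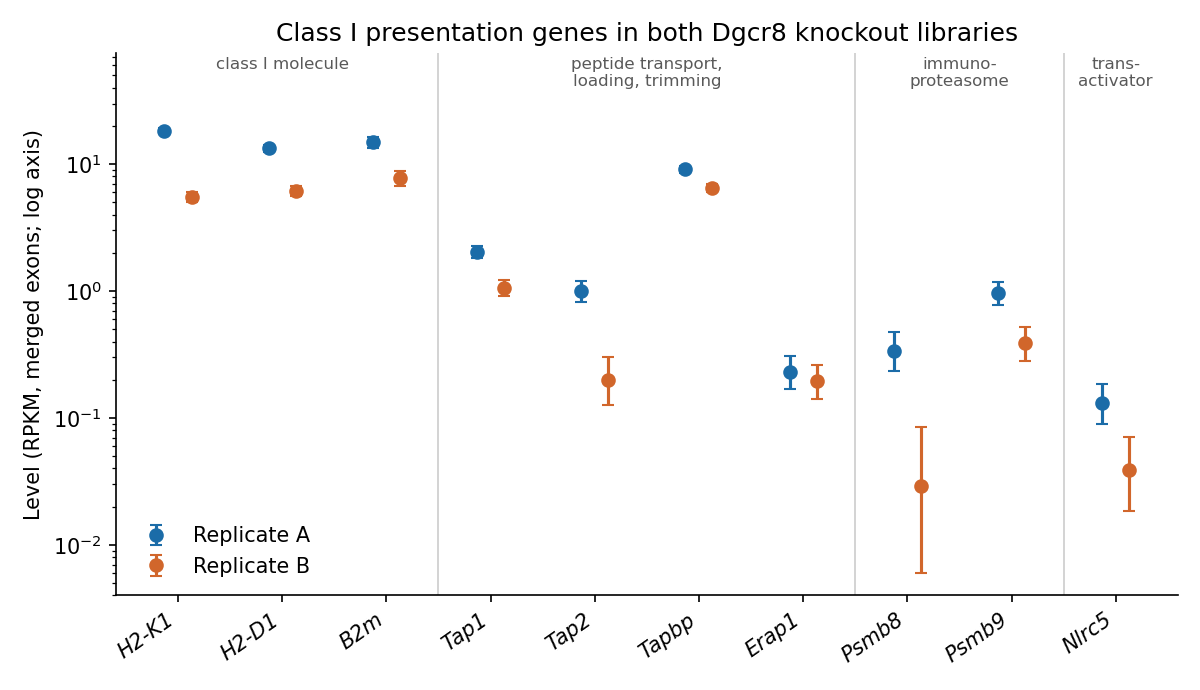
Level in RPKM (merged exons, log axis) of the 10 class I presentation genes in replicate A (blue) and replicate B (orange), grouped by role, with bars for the exact 95% Poisson limits of each count. The class I molecule genes and Tapbp lie between 5.52 and 18.3 RPKM, the other members at 2.03 or less, and each orange point lies below its blue one.

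Peptide transport and loading genes spanned a wide range. Tapbp (ENSMUSG00000024308), which encodes tapasin, held 923 counts in A and 710 in B, 33.1 CPM (31.0 to 35.3) and 23.4 CPM (21.7 to 25.2). At 7.79 ± 1.89 RPKM its level lay within the spread of the class I molecule genes. Tap1 (ENSMUSG00000037321), 1 chain of the peptide transporter, held 310 and 176 counts, 2.03 RPKM in A and 1.06 in B. Its partner chain Tap2 (ENSMUSG00000024339) held 105 and 23 counts, 0.996 and 0.201 RPKM. Both chains were higher in A, and Tap1 exceeded Tap2 2.04-fold in A and 5.28-fold in B, although the transporter needs both. With principal transcripts the excess of Tap1 was 3.44-fold and 8.92-fold.

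Erap1 (ENSMUSG00000021583), the aminopeptidase of the endoplasmic reticulum that trims peptides, was the member with the most similar values in the libraries. It held 47 counts in A and 43 in B, 1.69 CPM (1.24 to 2.24) and 1.42 CPM (1.03 to 1.91), and these intervals overlapped. Nlrc5 (ENSMUSG00000074151), the transactivator that acts at class I promoters, had the lowest level per length, 0.131 RPKM in A and 0.0388 in B from 31 and 10 counts. Its level exceeded that of 16.8% of protein-coding genes with a count. Its CPM was 1.11 (0.756 to 1.58) in A against 0.330 (0.158 to 0.606) in B, without overlap, so it reached 1 CPM in A only. In the counting test described below, 76.8% of the tested genes differed between A and B.

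The immunoproteasome genes Psmb8 and Psmb9 were low, and Psmb8 in B was at the detection limit of 3 counts. Psmb8 (ENSMUSG00000024338), which encodes the interferon-inducible subunit LMP7, held 32 counts in A and 3 in B, 1.15 CPM (0.785 to 1.62) and 0.0989 CPM (0.0204 to 0.289). Psmb9 (ENSMUSG00000096727), which encodes LMP2, held 98 and 43 counts, 3.52 CPM (2.85 to 4.29) and 1.42 CPM (1.03 to 1.91). Both were lower in B without overlap. In the counting test described below, 76.8% of the tested genes differed in either direction and by any amount. Called higher in A by 2-fold or more were 10.1%.

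The constitutive counterparts were far more abundant. Psmb5, whose place in the proteasome Psmb8 takes, reached 81.3 RPKM in A and 52.0 in B. Psmb8 therefore made up 0.416% of the summed RPKM of the pair in A (0.284 to 0.588) and 0.0562% in B (0.0116 to 0.165). Psmb6, the counterpart of Psmb9, reached 181 and 136 RPKM, and Psmb9 made up 0.528% of that pair in A (0.428 to 0.643) and 0.283% in B (0.205 to 0.381). With principal transcripts the shares were 0.860% and 0.117% for Psmb8 and 0.608% and 0.327% for Psmb9. The intervals are exact Clopper-Pearson limits on the counts, rescaled by length.

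Psmb10, the third immunosubunit, stood apart from the other two. It held 791 counts in A and 665 in B, 16.6 and 12.9 RPKM, beside 90.7 and 87.3 RPKM of its counterpart Psmb7. Its share of the pair was 15.5% in A (14.6 to 16.5) and 12.9% in B (12 to 13.8). With principal transcripts the mean share was 6.80%, since the merged exons of Psmb7 measure 3421 bases and its principal transcript 1160. The rows of Psmb5 are uncertain, as 24.9% of the 100-base windows of its longest transcript occur in transcripts of other genes. The immunosubunit genes were thus measured at unequal levels, with Psmb10 above Psmb8 and Psmb9 in each library by RPKM.

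**Figure D2:**
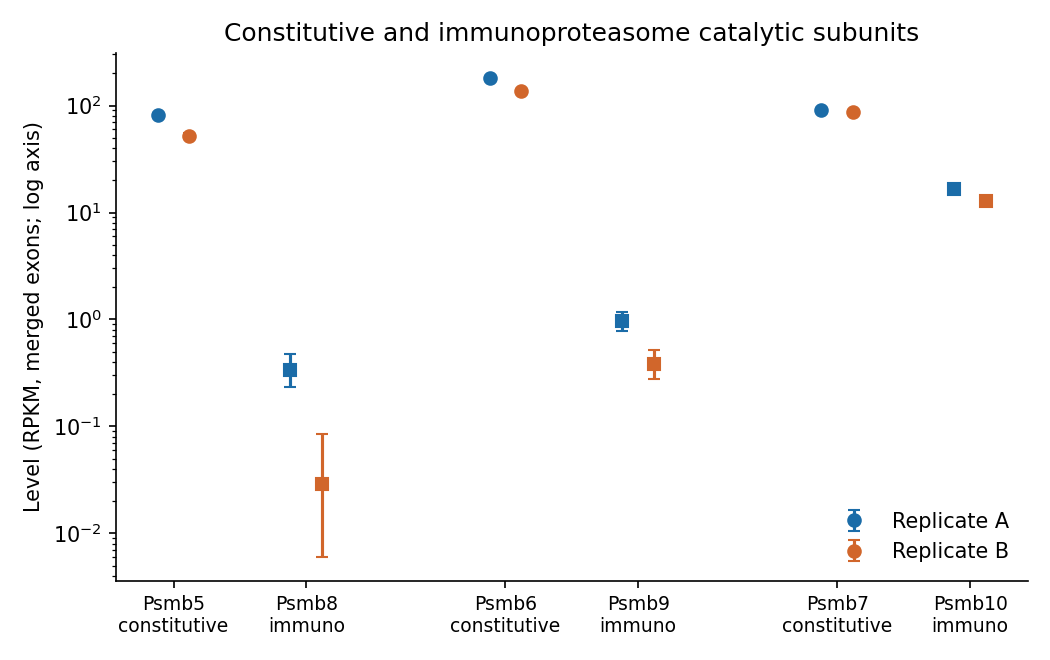
Level in RPKM (merged exons, log axis) of the 3 pairs of constitutive (circles) and immunoproteasome (squares) catalytic subunit genes in replicates A (blue) and B (orange), with bars for the exact 95% Poisson limits. Psmb8 and Psmb9 lie below 1 RPKM in both libraries, whereas Psmb10 lies at 16.6 and 12.9 RPKM and the constitutive genes at 52.0 to 181.

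By mean RPKM the order of the members was H2-K1, B2m, H2-D1, Tapbp, Tap1, Psmb9, Tap2, Erap1, Psmb8 and Nlrc5. The first 4 overlapped with one another. Tapbp in its lower library (6.45) still exceeded Tap1 in its higher one (2.03), and Tap1 in its lower library (1.06) exceeded Psmb9 in its higher one (0.961). From Psmb9 down, neighbours in the order overlapped. With principal transcripts Psmb9 (2.60 and 1.05) overlapped Tap1 (3.77 and 1.97) as well.

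Replicate B was then compared with replicate A gene by gene, to see how firmly these levels hold between the libraries. The comparison used an exact two-sided binomial test on the counts with TMM-scaled library sizes and Benjamini-Hochberg adjustment over the 14583 genes that reached 1 CPM in at least 1 library. It compares 2 libraries and knows counting noise only. All 10 members had the lower level in B, as did 50.8% of the tested genes. Of the 10 members, 9 were called higher in A and none higher in B, whereas 38.4% of the tested genes were called higher in A and 38.4% higher in B, 76.8% in either direction. Nlrc5, Tap2 and Psmb8 missed 1 CPM in B. Since A alone took them through the filter, their CPM had to be higher in A once tested. With all genes that had a count tested instead, each of the 9 kept its call.

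H2-K1 was 3.11-fold higher in A (2.81 to 3.45; exact binomial test, adjusted p = 1.6e-121), and 1.36% of the tested genes had a lower ratio of B over A, against 1.10% for Tap2. H2-D1 was 2.04-fold higher in A (1.83 to 2.28; exact binomial adjusted p = 1.5e-38), and B2m 1.80-fold (1.51 to 2.15; 3.0e-11). Tap2 was 4.66-fold higher in A (2.95 to 7.67; exact binomial adjusted p = 8.1e-14), against 1.80-fold for Tap1 (1.49 to 2.18; 7.2e-10). Tap2 and H2-K1 thus lay among the tested genes with the lowest ratios, and Tap1 and B2m had nearly equal ones.

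Psmb9 was 2.33-fold higher in A (1.61 to 3.41; exact binomial adjusted p = 3.6e-06) and Nlrc5 3.16-fold (1.51 to 7.23; 0.0013). Psmb8, with 3 counts in B, was 10.9-fold higher in A with an interval from 3.40 to 55.5 (exact binomial adjusted p = 3.8e-07). Tapbp differed least among the called genes, 1.33-fold (1.20 to 1.47; exact binomial adjusted p = 3.1e-08). Erap1 was not called, at 1.12-fold higher in A with an interval from 0.722 to 1.73 (exact binomial adjusted p = 0.71). Differences of 2-fold or more with a call were found for 6 members, 3 of which (Tap2, Nlrc5 and Psmb8) passed the filter only through A. The share over all tested genes was 10.1%, and 38.4% were called in each direction at any fold. In the same test 3 of 7 tested fibroblast markers were called higher in A and 3 higher in B. For leukocyte markers these were 3 and 1 of 4, and for ES cell markers 4 and 2 of 6. Of the 4 leukocyte markers, 1 passed the filter only through A. Several of these markers stood as far apart as members. Pdgfrb was 2.78-fold, Cd79a 2.29-fold, Dppa5a 2.26-fold and Col1a1 2.23-fold higher in A, and Cd68 was 1.71-fold higher in B. By the exact binomial test, adjusted p was 5.2e-05 for Col1a1 and smaller for the others. The fibroblast marker Pdgfra was 1.75-fold higher in B (exact binomial adjusted p = 0.0038).

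**Figure D3:**
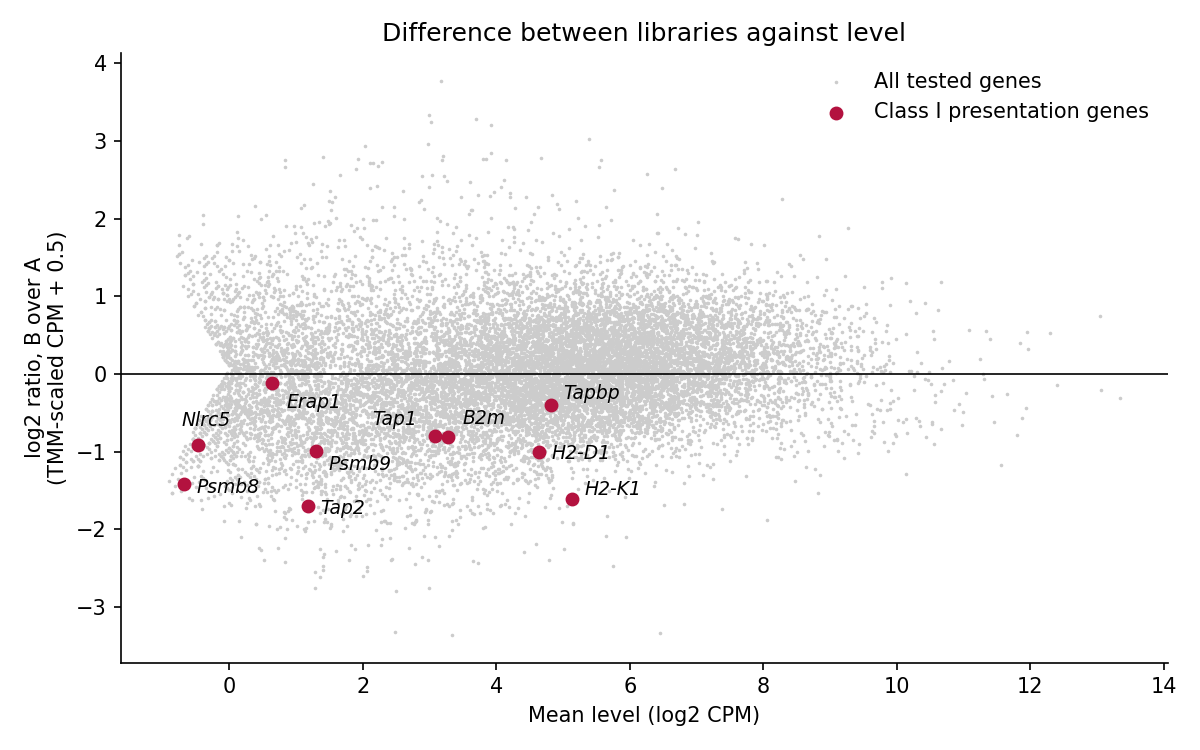
Log2 ratio of B over A (TMM-scaled CPM with a pseudocount of 0.5) against the mean level in log2 CPM for all 14583 tested genes (grey) and the 10 class I presentation genes (red, named). The red points lie below 0, from -0.12 for Erap1 to -1.69 for Tap2, inside the cloud of other genes.

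The calls did not hold once the spread between these libraries was put into the test. edgeR's exact test, with a common dispersion estimated from both libraries (a biological coefficient of variation of 0.359), called 0 of the 10 members and 25 of the 14583 genes (0.171%). At an unadjusted p under 0.05 the same exact test gave 3 members, each higher in A, namely H2-K1 (p = 0.033), Tap2 (p = 0.0095) and Psmb8 (p = 0.0027). Over all tested genes that threshold gave 5.8%, and 3.17% for those higher in A. Psmb8 and Tap2 are among the 3 that passed the filter only through A. That dispersion counts every difference between A and B as spread.

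Base composition moved with the ratio of B over A. Over all tested genes, the trend on GC content and transcript length lowered the log2 ratio of GC-rich genes and raised that of GC-poor ones, and 8 members have a GC content above 50%. The trend alone amounted to -0.49 for Tapbp and H2-D1, -0.41 for H2-K1 and Tap2, 0.23 for B2m and 0.63 for Erap1. With the trend removed, 9 of the 10 members remained lower in B, and Tapbp turned to 0.09 from -0.40. H2-K1 went from -1.61 to -1.20, H2-D1 from -1.01 to -0.52 and Tap1 from -0.80 to -0.49. B2m went from -0.81 to -1.03 and Erap1 from -0.12 to -0.74, so their difference grew. The median over the 10 members was -0.95 before and -0.89 after.

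**Figure D4:**
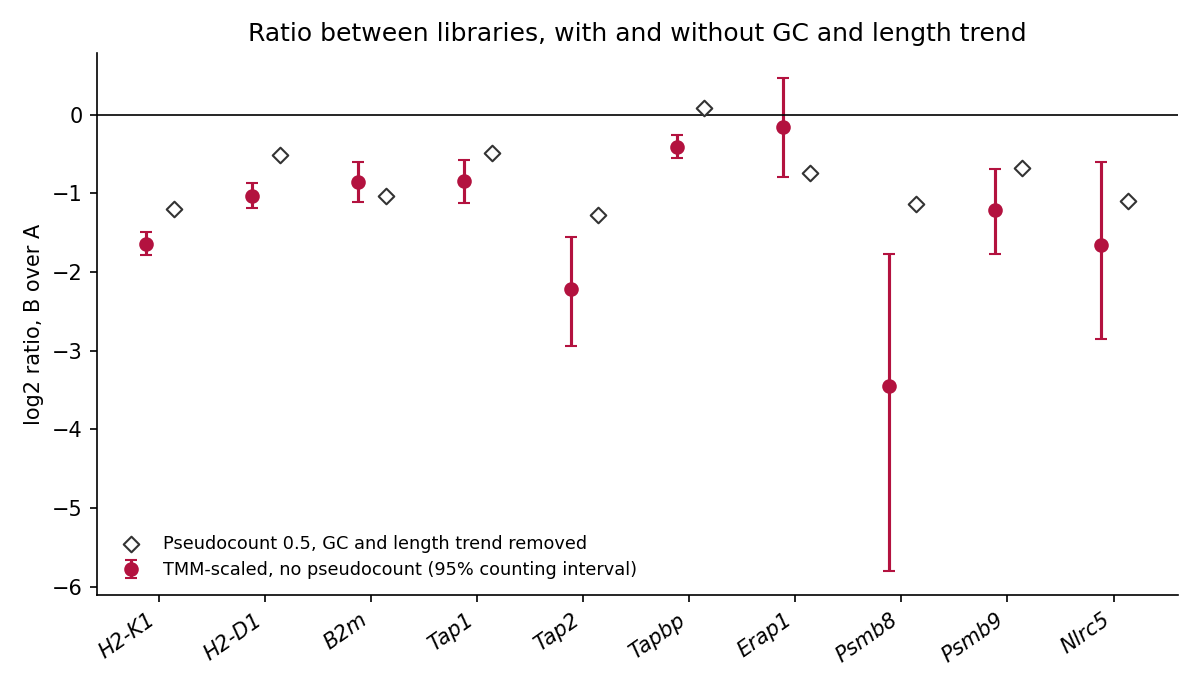
Log2 ratio of B over A for each member, TMM-scaled without a pseudocount with its 95% counting interval (red circles) and, with a pseudocount of 0.5, after removal of the GC and length trend (open diamonds). Tapbp is the 1 diamond above 0, and the diamonds of B2m and Erap1 lie lower than their circles; for Psmb8, Tap2 and Nlrc5 the pseudocount also draws the diamond toward 0.

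Other class I and class I-like genes were measured from a list of 16. Of these, 6 reached 1 CPM in both libraries and 6 stayed under it in both. Of 10 tested, 7 were called higher in A and none in B, against 38.4% of all tested genes in each direction. Of the 7, 3 (H2-Q2, H2-Q7 and H2-Q10) passed the filter only through A, as did Hfe, which was not called; H2-Q2 and Hfe are named after their values were seen. H2-Q4 held 396 and 183 counts, a 2.21-fold higher level in A (exact binomial adjusted p = 1.7e-19). Fcgrt, the neonatal receptor for immunoglobulin G, which also pairs with B2m, held 443 and 138, a 3.28-fold difference in the same direction (exact binomial adjusted p = 5.8e-39). Cd1d1, which presents lipids, differed little, with 245 and 261 counts (exact binomial adjusted p = 0.69). H2-T23 had 2 and 4 counts and H2-T10 had 10 and 6.

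Over the 9 genes of this list with a mean of 1 CPM or more, the median log2 ratio was -1.24, and -0.95 with the GC and length trend removed. The same medians were -0.90 and -0.71 over the 8 members at that level, and -0.01 and 0.01 over 14085 genes of all kinds. H2-Q7 and H2-Q10, named after their values were seen, had the lowest ratios of the list, with 203 and 211 counts in A against 22 and 25 in B. Reads of such genes can be split among near copies. Of the 100-base windows of the longest transcript, 13.5% of those of H2-Q7 and 8.80% of those of H2-Q10 occur in transcripts of other genes. With principal transcripts these shares were 21.9% and 2.06%. Among the members, 8 shared no window of their longest transcript with another gene, H2-D1 shared 4.64% of its windows, mostly with H2-Q1, and Tapbp 0.107%.

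The rest of the chromosome 17 region was set beside the members after their values were seen. Between 33915899 and 37483552, leaving out the class I and class II genes, 98 of 277 genes were tested, of which 53 were called higher in A, 22 higher in B and 23 neither, where 38.4% of all tested genes were called in each direction. Of these 98, 8 passed the filter only through A and 3 only through B, against 770 and 441 of all 14583 tested genes. The median log2 ratio of the region's genes was -0.24 over 92 genes with a mean of 1 CPM or more. With the GC and length trend removed it was 0.20. B2m, Nlrc5 and Erap1 lie outside this region.

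Genes that share work with the members did not move in one direction. Over all tested genes 38.4% were called in each direction. Of 9 measured chaperones and peptidases, each at 1 CPM or more in both libraries, 1 was called higher in A and 5 higher in B. The chaperone genes Calr and Pdia3, which act on class I in the loading complex, were at 345 and 178 RPKM in A and 258 and 168 in B, and Hspa5, the general chaperone BiP, at 204 in each. Hspa5 was called higher in B by 1.06-fold, and its log2 ratio turned to -0.17 with the GC and length trend removed. Among 5 genes for proteasome activators and assembly, Psme3 and Psme4 were called higher in B, Psme3 with 219 CPM in A against 275 in B and Psme4 with 242 against 277, as was the assembly factor Pomp (156 against 162). Psme1 and Psme2, named after their values were seen, encode the interferon-inducible PA28 activator and were called higher in A, 1.86-fold and 1.94-fold (exact binomial adjusted p = 2.4e-76 and 2.0e-26). Removing the GC and length trend left log2 ratios of -0.37 for Psme1 and -0.58 for Psme2, and turned Psme4 to -0.29.

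Transcription factors that bind class I promoters and parts of the interferon pathway were present. Of 23 measured, 22 reached 1 CPM in both libraries. Called higher in A were 7 and higher in B 8, against 38.4% of all tested genes in each direction. The median log2 ratio was 0.01, or -0.11 with the trend removed. Atf1, of the CREB family, reached 131 CPM in A and 179 in B. The NF-Y subunit genes Nfyb (83.6 and 79.4) and Nfyc (63.3 and 59.5) were not called, whereas Nfya (40.4 and 77.5), named after its values were seen, was 2.05-fold higher in B (exact binomial adjusted p = 1.8e-91). Named after their values were seen, the genes of the RFX complex, the partner of NLRC5 on class I promoters, were measured at 20.9 and 13.9 CPM (Rfx5), 8.72 and 2.97 (Rfxap) and 10.2 and 10.3 (Rfxank). Rfxap was 2.76-fold higher in A (exact binomial adjusted p = 1.1e-17). Irf2 stayed under 1 CPM in both, with 8 and 13 counts.

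Interferon-induced genes outside antigen presentation were mostly near 0. Of 15 measured, 11 stayed under 1 CPM in both libraries, among them Ifit1 with 10 and 8 counts and Ifit3 with 0 and 1. Bst2, which tethers budding virus particles, reached 94.3 and 42.2 CPM, a 2.10-fold higher level in A (exact binomial adjusted p = 4.4e-110). Oas1a, a sensor of double-stranded RNA, held 1238 and 1030 counts. Igtp, an interferon-inducible GTPase gene, held 140 and 35. These 3 were called higher in A and 1 other tested gene higher in B, against 38.4% of all tested genes in each direction. With the GC and length trend removed, the log2 ratio was -0.52 for Bst2, -0.03 for Oas1a and -1.56 for Igtp.

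**Figure D5:**
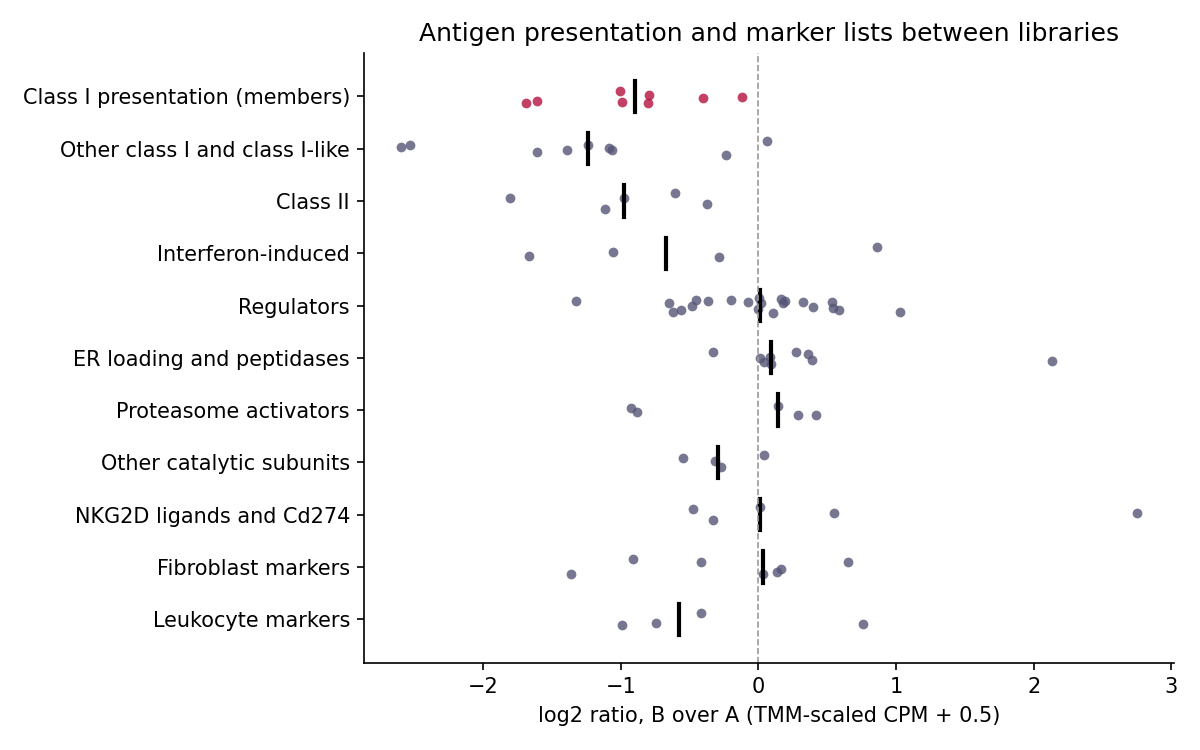
Log2 ratio of B over A (TMM-scaled CPM with a pseudocount of 0.5) for the genes of each list whose mean level was at least 1 CPM; each point is a gene, placed at random in height within its row, and the black bar is the median. The medians of the class I presentation genes (-0.90), other class I genes (-1.24) and class II genes (-0.98) lie below 0. So do those of the interferon-induced genes (-0.67), leukocyte markers (-0.58) and other catalytic subunits (-0.29). The medians of the remaining lists, the regulators among them, lie between 0.01 and 0.14. With the GC and length trend removed (not plotted), the medians were -0.57 for class II genes, -0.28 for interferon-induced genes and -0.32 for leukocyte markers. That of other catalytic subunits turned to 0.003 and that of proteasome activators to -0.29.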

How the data were processed

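Per the submitters' processing notes the tools were STAR 2.4.2a and featureCounts 1.4.5-p1 on the mm10 build, with no role given for each. The deposited files, 1 for each library, list raw counts by Ensembl identifier, without normalization by the authors. Which annotation and strand setting the counting used is not given in the sources used here, so overlapping opposite-strand genes are uncertain: 24.9% of the exon bases of Tapbp, 14.7% of Psmb8, 14.1% of Tap2, 11.5% of Erap1 and 5.79% of Psmb9 lie under exons of another opposite-strand gene.

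Names, positions and lengths came from GENCODE M21 (GRCm38), which matched 42548 of 43629 identifiers and 99.8% of the counts of each library. TMM factors (edgeR 4.0.16, R 4.3.3) were 1.03 for A and 0.968 for B. The exact binomial test (scipy 1.17.1) was checked on simulated counts. The GC and length trend was a lowess fit (span 0.3) of the log2 ratio on GC content, then on length, of the longest transcript. Tried in their place were size factors of DESeq2 1.42.0, plain library totals, other filters and pseudocounts, edgeR's exact test and other transcript lengths, the principal transcript having been added after the data were seen. The members and the 11 other gene lists were chosen with earlier results of these data known. Named genes were the members, the catalytic proteasome subunits, and of each other list the 3 of highest mean RPKM among those with 1 CPM in each library, and the first 2 under 1 CPM in both. The 2 libraries give 1 ratio per gene, so no genes of similar pattern were sought. Of the listed symbols, Nrdc was not matched.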

Additional observations from a re-analysis of the deposited data

How the results depend on the processing

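Of the 10 members, 9 were called with DESeq2 size factors, with library totals and without a filter, as in the main test. With a filter of 5 CPM in place of 1, 5 members were tested and 5 called, since fewer passed. edgeR's exact test with a common dispersion called 0 of 10 members and 25 genes in all, where the binomial test called 9 and 11201. DESeq2 size factors split all calls into 5334 higher in A and 5819 higher in B, and library totals into 6431 and 4851. With the median ratio of all tested genes at -0.10 by library totals, each member stayed lower in B. The 1 reversal was the log2 ratio of Tapbp, which went from -0.40 to 0.091 with the GC and length trend removed. Pseudocounts of 0.1 and 1 moved the members' median log2 ratio to -1.09 and -0.80. Principal transcripts moved the share of Psmb10 in its pair with Psmb7 to 6.80%, from 14.2%, and that of Psmb8 to 0.488%, from 0.236%. Without replicate A or B, the share of Psmb10 was 12.9% and 15.5%, that of Psmb8 0.0562% and 0.416% and that of Psmb9 0.283% and 0.528%, and members at 1 CPM or more numbered 7 and 10, against 7 in both libraries. No comparison between the libraries can leave 1 out. No paired analysis was possible because the series holds 1 group. Depth limits Psmb8 most: its 3 counts in B give limits from 0.0204 to 0.289 CPM.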

Other observations

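Class II presentation genes and ligands of the natural killer cell receptor NKG2D were measured beside the class I genes. Of 9 class II genes, 4 reached 1 CPM in both libraries. Cd74, the invariant chain, held 623 counts in replicate A and 413 in replicate B, H2-DMa, a chain of the class II peptide editor, 163 and 37, and H2-Eb1 124 and 57. Of 5 tested, 4 were called higher in A and none higher in B (exact binomial test), and 1 of the 5 passed the filter only through A, against 38.4% of all tested genes called higher in A. With the GC and length trend removed, the log2 ratio of H2-DMa was -1.35 and that of Cd74 -0.05. H2-Aa had 0 counts throughout, where a limit of 3 counts is 0.108 CPM (A) and 0.0989 CPM (B), and H2-Ab1 had 24 and 5. Named after their values were seen, H2-Ob also had 0 counts and Ciita, the class II transactivator, 8 and 7. Of the leukocyte markers, Cd79a, of the class II-expressing B cells, was higher in A as well (110 and 49 counts), Cd68, of macrophages, was higher in B (412 and 720), and Ptprc had 1 and 5 counts. Their part in the class II levels was not tested.

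Of the 6 genes for NKG2D ligands and the checkpoint ligand PD-L1, 5 were tested. Of these, 2 were called higher in A and 2 higher in B. The 2 called higher in B passed the filter only through B, so their CPM had to be higher there once tested. The share over all tested genes was 38.4% in each direction. Raet1d held 258 and 185 counts, Raet1e 278 and 223, and H60c 3 and 1. The annotated span of Raet1d lies inside that of Raet1e, so their counts are uncertain. Ulbp1, named after its values were seen, went the other way, with 3 counts in A against 105 in B, a 34.3-fold difference with a counting interval from 11.4 to 169. It passed the filter only through B. It was the 1 gene of all these lists that edgeR's exact test with a common dispersion called (adjusted p = 0.018, where the exact binomial test gave 9.1e-27), and its log2 ratio was 2.75, or 2.10 with the GC and length trend removed.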
